A study of Mus musculus with 30 samples.

Results

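The endoplasmic reticulum (ER) chaperone and unfolded protein response (UPR) set comprised 10 genes, namely Hspa5, Hsp90b1, Pdia4, Pdia6, Sdf2l1, Herpud1, Dnajb9, Manf, Atf6 and Ern1. They were selected by gene symbol from the 55471 genes counted in bulk RNA-seq of sorted mouse bone marrow hematopoietic stem cells (HSCs) and multipotent progenitors (MPPs), and all 10 were found in both tables. MTP10-HDL, a high-density lipoprotein nanobiologic that carries a muramyl tripeptide derivative, was compared with PBS (phosphate-buffered saline) in C57BL/6 mice. Each HSC library was a pool of 4 mice, and 6 MTP10-HDL pools were set against 7 PBS pools. For MPPs, 3 MTP10-HDL pools were set against 2 PBS pools, also of 4 mice each. For the MPP samples the schedule was 3 injections within 5 days, and mice were killed 1 day after the final injection. The schedule of the HSC samples is not given in the sources used here. All cells were sorted by flow cytometry from lineage-depleted marrow. HSC libraries came from amplified total RNA and MPP libraries from polyA-selected RNA with insect carrier RNA. Pools are numbered as in the tables, and p-values measure the spread between pools. The question put to this gene set was whether it differed with treatment within each cell type, and how it moved with the immunoglobulin content of each library.

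Proteins that enter the ER are folded there by chaperones such as the Hsp70 protein Hspa5 and by disulfide isomerases, and those that fail to fold are sent to the proteasome. When unfolded protein builds up, the membrane sensors Ern1 (IRE1 alpha), Atf6 and Eif2ak3 (PERK) start the UPR, which raises transcription of the chaperones and of the degradation machinery. Plasma cells, which secrete antibody, depend on the Ern1 and Xbp1 arm for their large ER, whereas quiescent HSCs are known for a low rate of protein synthesis.

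Total counts ranged from 4064155 to 7879858 in the HSC libraries and from 11252479 to 32769369 in the MPP libraries. The fewest counts behind a member in any library were 78, for Dnajb9 in a PBS HSC pool. Immunoglobulin genes (all gene biotypes beginning with IG_) took 0.374% to 4.90% of counts in MTP10-HDL HSC pools, against 0.271% to 19.8% in PBS HSC pools. In MPPs they took 4.26%, 4.24% and 2.76% in MTP10-HDL pools 1 to 3, against 12.5% and 6.20% in PBS pools 2 and 3. The widest 95% Wilson interval of these shares was 0.0324 percentage points to either side, which covers counting error only. Pool 2 of the PBS HSCs stood apart with the 19.8% share. All 10 HSC and progenitor markers were detected above the count filter in both tables, with a summed level of 1556 to 2560 CPM (counts put on one scale by library size) in MTP10-HDL HSC pools and 1603 to 2974 CPM in PBS HSC pools. The 10 plasma cell markers summed to 238 to 1593 CPM in MTP10-HDL HSC pools, against 234 to 7188 CPM in PBS HSC pools. Of these, Jchain was present in every library, while Mzb1 did not exceed 5.71 CPM in HSCs. In such pooled RNA, fewer cells of a type and less RNA per cell cannot be told apart. By values of the libraries themselves, the HSC libraries also fell into technical groups: 4 had only 24233 to 27528 detected genes, 4 had 0.813% to 1.26% of counts from nuclear ribosomal RNA genes, and the other 5 had neither. Each technical group held pools of both treatments. The immunoglobulin share went partly with these groups. It was 0.789% to 7.83% in the pools with few detected genes, 1.22% to 19.8% in those with more ribosomal RNA and 0.271% to 1.45% in the others. In 2 other marker lists, edgeR called 0 genes for treatment in HSCs but many had a low unadjusted p: B cell markers summed to 63.1 to 204 CPM with MTP10-HDL and 88.8 to 511 CPM with PBS, with 8 of 13 lower at an unadjusted p under 0.05. Erythroblast markers summed to 56.9 to 118 CPM with MTP10-HDL and 117 to 421 CPM with PBS, with 5 of 8 lower by that measure. The part of these cells in the member values was not tested.

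No member differed with treatment in HSCs at an adjusted p under 0.05. By edgeR's quasi-likelihood test with Benjamini-Hochberg adjustment, 0 of the 10 members were called, beside 0% of the 16631 genes tested; 1469 genes had an unadjusted p under 0.05. DESeq2 called 104 genes and limma voom 0, and both called 0 members. At an unadjusted p under 0.05, 2 members, Ern1 and Herpud1, were lower with MTP10-HDL, beside 4.47% of all genes lower by that measure. Over the 10 members, 4 had a higher and 6 a lower fitted level with MTP10-HDL, and the median log2 fold change was -0.19, against -0.02 over all genes. PBS pool 2 decided this tally: without it 6 members were higher and 4 lower, Hsp90b1 and Pdia4 having changed sign, and the median was 0.17.

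Among the sensors, Ern1 encodes the kinase and endoribonuclease that splices Xbp1 mRNA. Its level in HSCs ran from 119.9 to 147.4 CPM in the 6 MTP10-HDL pools, with a median of 125.3 CPM, against 145.8 to 273.7 CPM in the 7 PBS pools, with a median of 166.5 CPM. All 6 MTP10-HDL pools lay below the PBS median, and only the highest of them reached into the PBS range. The log2 fold change was -0.49 (SE 0.14, edgeR quasi-likelihood unadjusted p = 0.00303, adjusted p = 0.355). Within the technical groups, MTP10-HDL minus PBS was -0.33 in the pools with few detected genes, -0.37 in those with more ribosomal RNA and -0.65 in the others, on the log2 CPM scale. Leaving out PBS pool 7, the highest, gave -0.37, the smallest difference of the 13 fits that leave out a library. Atf6, the sensor that is cut in the Golgi to release a transcription factor, had 95.4 to 186 CPM in MTP10-HDL pools (median 115 CPM) and 83.3 to 183 CPM in PBS pools (median 105 CPM). These ranges overlapped almost fully, and its log2 fold change was 0.05 (95% interval -0.36 to 0.47).

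Herpud1, a membrane component of the Hrd1 ubiquitin ligase complex in ER-associated degradation (ERAD), gave the largest fitted difference of the 10 in HSCs. It had 23.8 to 47.5 CPM in MTP10-HDL pools (median 28.7 CPM), against 21.1 to 144 CPM in PBS pools (median 48.8 CPM). All 6 MTP10-HDL pools lay below the PBS median, although the lowest library of all was a PBS pool. Its log2 fold change was -0.92 (SE 0.34, edgeR quasi-likelihood unadjusted p = 0.0160, adjusted p = 0.490), and without PBS pool 2 it was -0.53. Within the technical groups the difference was -0.96 in pools with few detected genes, -1.23 in those with more ribosomal RNA and -0.33 in the others. Dnajb9 (ERdj4), a J-domain co-chaperone that brings Hspa5 to Ern1 and so restrains it, had 13.3 to 33.3 CPM with MTP10-HDL (median 20.1 CPM) and 17.2 to 73.2 CPM with PBS (median 26.1 CPM). The log2 fold change of Dnajb9 was -0.56 (95% interval -1.20 to 0.07), and -0.21 without PBS pool 2.

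The luminal chaperones differed less with treatment than they did between pools of one treatment. Hspa5 (BiP), which holds nascent chains, unpaired immunoglobulin heavy chains among them, had 344 to 750 CPM in MTP10-HDL HSC pools (median 466.4 CPM) and 326 to 996 CPM in PBS pools (median 544 CPM), with a log2 fold change of -0.31 (95% interval -0.81 to 0.19), or -0.15 without PBS pool 2. Hsp90b1 (GRP94), the Hsp90 of the ER, had 451 to 1397 CPM with MTP10-HDL (median 973 CPM) and 505 to 2673 CPM with PBS (median 874 CPM). Its log2 fold change was -0.25 (95% interval -1.01 to 0.51), and 0.14 without PBS pool 2. Pdia4 (ERp72), a disulfide isomerase, spread most of all the members, from 114 to 253 CPM with MTP10-HDL (median 159 CPM) and from 69.5 to 512 CPM with PBS (median 126 CPM). In PBS pools that was a 7.37-fold range, and its log2 fold change was -0.13 (95% interval -0.96 to 0.71), or 0.37 without PBS pool 2. Sdf2l1, which works in a complex with Hspa5 and the co-chaperone Dnajb11, had 34.8 to 88.2 CPM with MTP10-HDL (median 48.0 CPM) and 17.9 to 99.4 CPM with PBS (median 39.4 CPM).

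For Pdia6 (P5), another disulfide isomerase, and Manf, a small soluble ER protein that binds Hspa5 and can be secreted, all 6 MTP10-HDL pools lay above the PBS median in HSCs. Pdia6 had 103 to 189 CPM with MTP10-HDL (median 117 CPM) and 82.8 to 181 CPM with PBS (median 98.9 CPM). Manf had 44.6 to 72.7 CPM with MTP10-HDL (median 47.0 CPM) and 29.3 to 101 CPM with PBS (median 36.0 CPM). The upper ends of both PBS ranges came from pools rich in immunoglobulin counts, and the log2 fold changes were 0.16 (95% interval -0.26 to 0.58) for Pdia6 and 0.11 (95% interval -0.45 to 0.66) for Manf. Single libraries moved both: Pdia6 stood at 0.017 without MTP10-HDL pool 4 and at 0.31 without PBS pool 2, and Manf at 0.010 without PBS pool 5 and at 0.37 without PBS pool 2. The groups overlapped for all 10 members in HSCs.

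**Figure D1:**
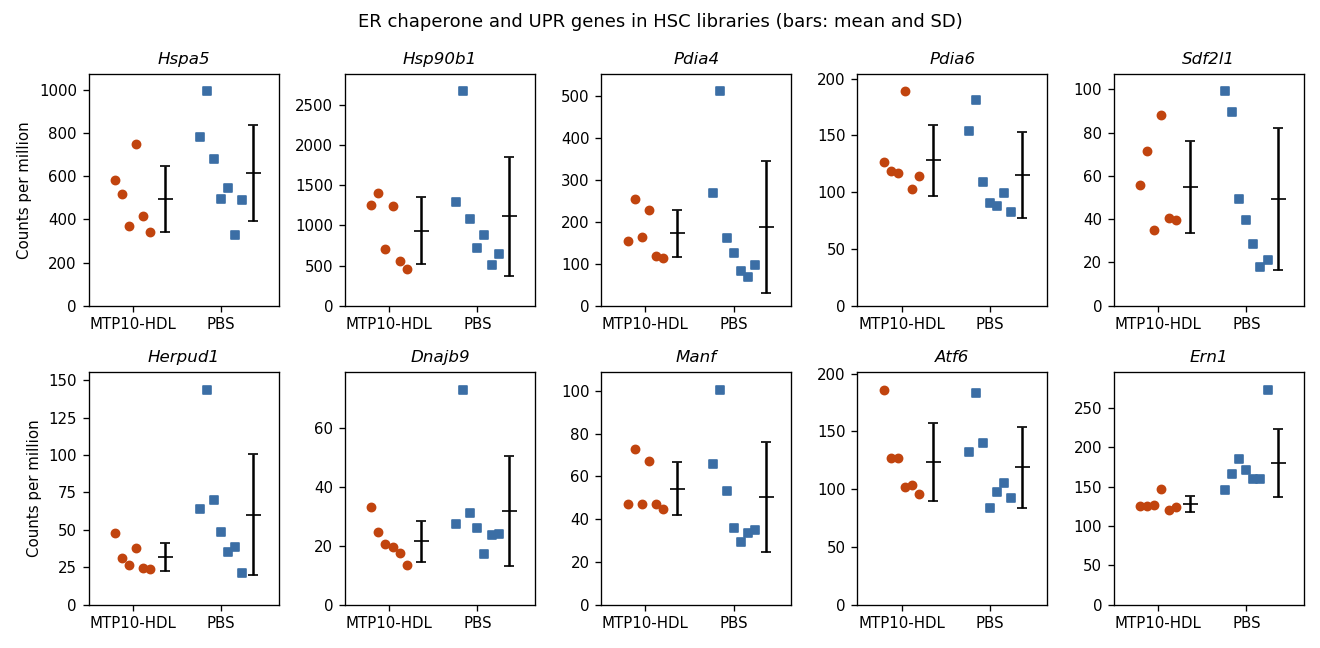
Level of each of the 10 genes (CPM of the scaled library size) in 6 MTP10-HDL pools (circles) and 7 PBS pools (squares) of HSCs, with group mean and SD as black bars. PBS pool 2 is the highest PBS point for 8 genes, while Ern1 has its highest value in PBS pool 7 and a narrow MTP10-HDL group between 119.9 and 147.4 CPM.

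In MPPs, too, no member was called. By edgeR's quasi-likelihood test 0 of 10 members passed an adjusted p of 0.05, beside 0% of 15449 genes; 963 genes had an unadjusted p under 0.05. DESeq2 called 163 genes and limma voom 0, and both called 0 members. At an unadjusted p under 0.05, Dnajb9 and Ern1 were lower with MTP10-HDL, 2 of 10 members beside 4.06% of all genes. Herpud1 and Dnajb9 lay below the PBS range in every MTP10-HDL pool, 2 of 10 members beside 12.3% of all genes with such a gap downward. The median log2 fold change of the members was -0.06, against 0.02 over all genes.

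Dnajb9 had 51.2, 49.7 and 40.8 CPM in MTP10-HDL MPP pools 1 to 3, against 68.2 and 90.8 CPM in PBS MPP pools 2 and 3. The groups did not overlap, and the log2 fold change was -0.75 (SE 0.22, edgeR quasi-likelihood unadjusted p = 0.0104, adjusted p = 0.593). Herpud1 had 126, 117 and 146 CPM in MTP10-HDL pools, against 157 and 163 CPM in PBS pools. These groups did not overlap either, by a smaller gap, with a log2 fold change of -0.30 (95% interval -0.76 to 0.15). Ern1 had 114, 67.5 and 102 CPM with MTP10-HDL and 232 and 111 CPM with PBS. The groups of Ern1 touched, since PBS pool 3 lay just below MTP10-HDL pool 1, and its log2 fold change of -0.87 (SE 0.35, edgeR quasi-likelihood unadjusted p = 0.0401, adjusted p = 0.787) became -0.24 without PBS pool 2.

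The chaperones of MPPs showed no common direction. Hspa5 had 756, 905 and 622 CPM with MTP10-HDL and 789 and 800.5 CPM with PBS, and Hsp90b1 had 1034, 1243 and 791 CPM with MTP10-HDL and 1260 and 858 CPM with PBS. For Hspa5 the MTP10-HDL pools spread to either side of both PBS pools, whereas for Hsp90b1 the highest and lowest MTP10-HDL pools lay just under the highest and the lowest PBS pool. Pdia4 had 259, 209 and 197 CPM with MTP10-HDL and 329 and 212 CPM with PBS. Pdia6 had 352, 472 and 363 CPM with MTP10-HDL and 363 and 297 CPM with PBS. The groups overlapped for both isomerases. Sdf2l1, Manf and Atf6 each had MTP10-HDL pools both above and below the PBS pools. The 95% intervals of the log2 fold change of these 7 genes all held 0, and the widest, that of Sdf2l1, ran from -0.651 to 1.082. Plasma cell markers moved beside these values: they summed to 1398 to 3783 CPM in MTP10-HDL MPP pools, against 3787 to 7313 CPM in PBS MPP pools, and 7 of 10 were lower at an unadjusted p under 0.05 by edgeR, with 0 called. Erythroblast markers summed to 19.5 to 39.97 CPM with MTP10-HDL and 59.3 to 90.8 CPM with PBS, and monocyte and macrophage markers to 204 to 279 CPM with MTP10-HDL and 356 to 382 CPM with PBS. Ribosomal RNA genes took 0.508% to 0.915% of counts with MTP10-HDL and 1.26% to 1.47% with PBS, and total counts were 17555267 to 32769369 with MTP10-HDL and 11252479 to 14691375 with PBS. The immunoglobulin share was 2.76% to 4.26% with MTP10-HDL and 6.20% and 12.5% with PBS. All of these separated the 3 MTP10-HDL pools from the 2 PBS pools, as Dnajb9 and Herpud1 did. Their part and that of treatment therefore cannot be told apart in MPPs.

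**Figure D2:**
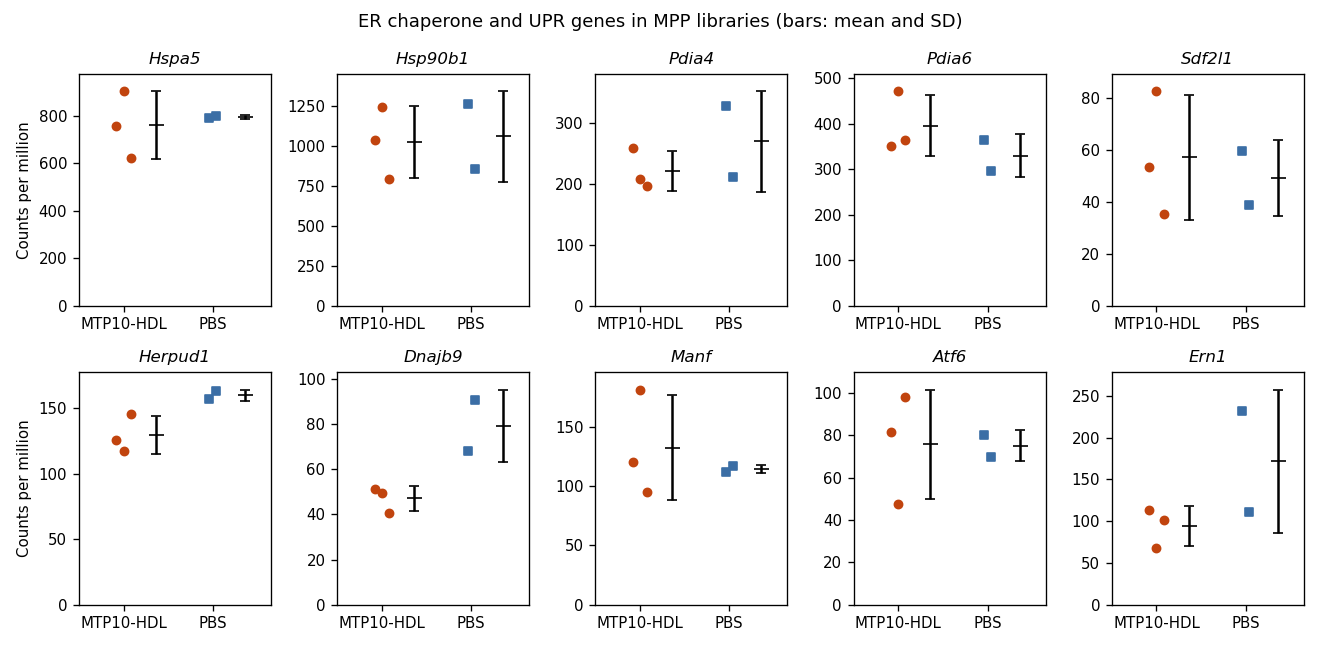
Level of each of the 10 genes (CPM of the scaled library size) in 3 MTP10-HDL pools (circles) and 2 PBS pools (squares) of MPPs, with group mean and SD as black bars. Dnajb9 and Herpud1 have all MTP10-HDL points below both PBS points, and one PBS pool, at 232 CPM, sets the PBS mean of Ern1.

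The responses of the 2 cell types were compared in one model of all 18 libraries, in which 0 of 10 members differed, beside 0.00409% of 24470 genes (1 gene, not a member). By edgeR 0 members had an unadjusted p under 0.05 for this difference, and DESeq2 and limma voom called 0 as well. The MPP minus HSC difference in log2 fold change ran from -0.37 for Ern1 (95% interval -1.08 to 0.35) to 0.63 for Herpud1 (95% interval -0.53 to 1.79). These intervals are wide, so the responses were neither shown to differ nor shown to be alike. The HSC and MPP libraries were made with different kits, and levels were therefore not compared between the cell types.

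Across the 13 HSC libraries, most of the chaperones rose with the share of immunoglobulin counts. In a model with a treatment term and the log2 share, 6 of the 10 members had a positive slope at an adjusted p under 0.05 (edgeR quasi-likelihood, Benjamini-Hochberg over all genes), beside 0.74% of the 16631 genes, all positive. Of the 123 genes called, 54 were immunoglobulin genes, from which the share itself was computed, and 69 were others. The median slope of the members was 0.24, against -0.0026 over all genes, in log2 units per doubling of the share. Members and rule were chosen with this covariation known, so the count describes the set and is not independent evidence of it.

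The steepest slopes belonged to the folding enzymes and chaperones. Pdia4 rose by 0.42 per doubling of the share (SE 0.05, edgeR adjusted p = 0.000195), Sdf2l1 by 0.41 (SE 0.06, edgeR adjusted p = 0.000954) and Hsp90b1 by 0.36 (SE 0.06, edgeR adjusted p = 0.00212). Manf rose by 0.25 (SE 0.04, edgeR adjusted p = 0.00639), Hspa5 by 0.23 (SE 0.04, edgeR adjusted p = 0.0149), and the ERAD component Herpud1 by 0.30 (SE 0.07, edgeR adjusted p = 0.0456). Sdf2l1 shows the pattern plainly: among PBS pools it had 17.9 CPM at the lowest share, 0.271%, and 99.4 and 89.4 CPM at 7.83% and 19.8%. Among MTP10-HDL pools it had 39.4 CPM at the lowest share, 0.374%, and 88.2 and 71.4 CPM at 2.15% and 4.90%.

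Dnajb9 and Pdia6 had positive slopes that were not called, 0.23 (SE 0.07, edgeR adjusted p = 0.238) and 0.15 (SE 0.05, edgeR adjusted p = 0.309). The sensors had the 2 smallest. That of Atf6 was 0.12 (SE 0.05, edgeR adjusted p = 0.584), and that of Ern1 was -0.04 (95% interval -0.13 to 0.06). The interval of Ern1 ended below the lower bound of every called member, the least of which was 0.14, for Hspa5. The difference between the slopes of 2 genes was not itself tested.

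**Figure D3:**
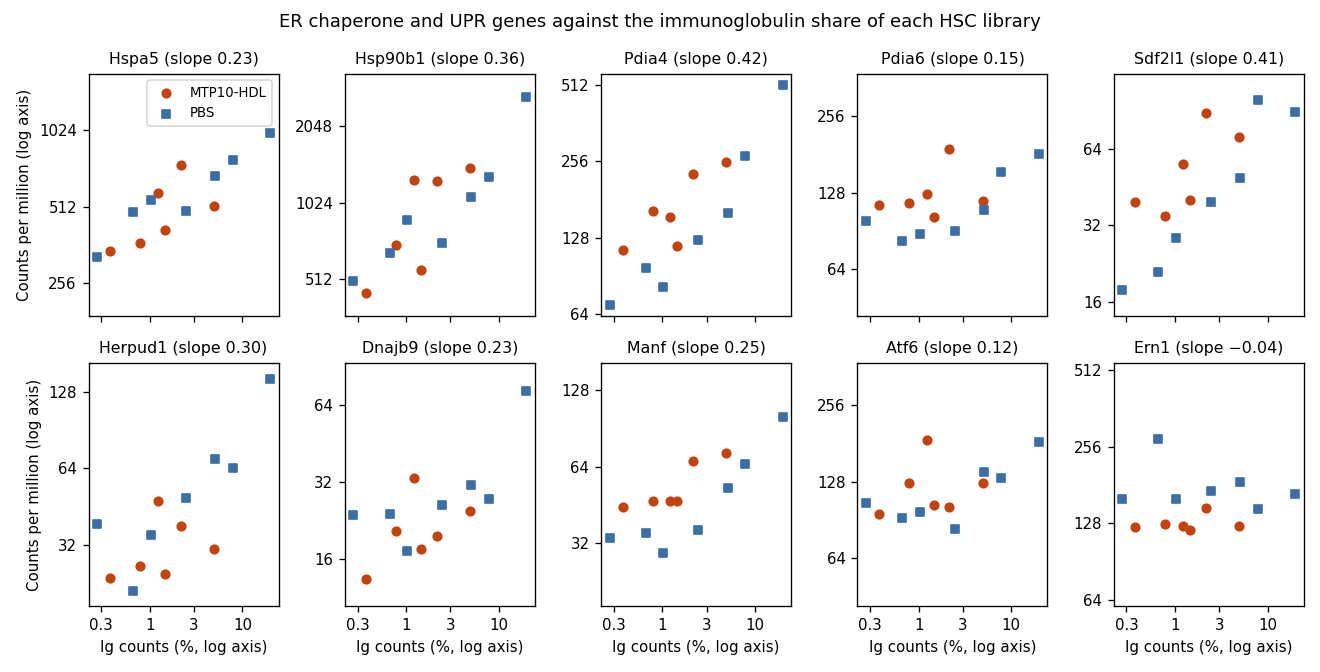
CPM (log axis) of each of the 10 genes against the immunoglobulin percentage of counts (log axis) in 6 MTP10-HDL pools (circles) and 7 PBS pools (squares) of HSCs, with the fitted slope in each title. Pdia4, Sdf2l1 and Hsp90b1 rise between 0.271% and 19.8%, though not at every step, whereas Ern1 has a slope of -0.04. Sdf2l1, for one, has 99.4 CPM at 7.83% and 89.4 CPM at 19.8% in PBS pools.

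As plain correlations over the 13 libraries, log2 CPM and log2 share gave r = 0.87 and rho = 0.84 for Hspa5 (permutation p = 0.00016 and 0.00084), and without PBS pools 1 and 2, the 2 farthest from the median share, r was 0.74. For Pdia4, r was 0.87 and rho 0.82 (permutation p = 0.00012 and 0.0011), with r = 0.72 without those pools. For Ern1, r was 0.03 and rho 0.18 (permutation p = 0.925 and 0.554), and r was -0.03 without those pools. Hsp90b1, Sdf2l1 and Manf had r of 0.87, 0.81 and 0.79 and rho of 0.82, 0.82 and 0.76 (permutation p of r = 0.00011, 0.00104 and 0.00123), and r was 0.76, 0.72 and 0.61 without those pools. Herpud1 had r = 0.77 and rho = 0.70 (permutation p = 0.00209 and 0.00946), and Dnajb9 had r = 0.71 and rho = 0.65 (permutation p = 0.00539 and 0.0189). Without those pools r was 0.51 for Herpud1 and 0.45 for Dnajb9. For Pdia6 and Atf6 r was 0.58 and 0.54 (permutation p = 0.038 and 0.0577). Without those pools it became 0.26 and 0.27, so over all libraries these 2 relations rested largely on PBS pools 1 and 2. Within the 7 PBS pools alone r was 0.96 for Hspa5 (exact permutation p = 0.00218), 0.95 for Pdia4 (exact permutation p = 0.000794) and 0.96 for Sdf2l1 (exact permutation p = 0.000794). Of the others in PBS pools, r was 0.92 for Hsp90b1, 0.89 for Manf, 0.87 for Herpud1 and 0.75 for Dnajb9. It was 0.82 for Pdia6, 0.76 for Atf6 and -0.31 for Ern1. Without PBS pools 2 and 6, it was 0.89 for Pdia6 and 0.75 for Atf6. Within the 6 MTP10-HDL pools, where the share varied less, r was 0.65 for Hspa5 (exact permutation p = 0.163), 0.82 for Pdia4 (exact permutation p = 0.0472), 0.74 for Sdf2l1 (exact permutation p = 0.0903) and 0.86 for Manf (exact permutation p = 0.0125). Of the others in MTP10-HDL pools, r was 0.79 for Hsp90b1 and 0.52 for Dnajb9, and it was 0.37 for Herpud1 (exact permutation p = 0.463), 0.28 for Pdia6, 0.19 for Atf6 and 0.27 for Ern1. Without MTP10-HDL pools 2 and 6, which left 4 pools, r moved both ways. It fell to 0.42 for Pdia4, 0.42 for Hsp90b1, 0.78 for Manf, 0.32 for Herpud1, -0.21 for Dnajb9 and -0.45 for Atf6. It rose to 0.81 for Hspa5, 0.85 for Sdf2l1, 0.67 for Pdia6 and 0.63 for Ern1. Before leaving out pools, 30 such relations were computed, for 10 genes over all libraries and within each treatment, and the adjusted values are those of the model above. Members and rule were chosen with this covariation known, so these permutation p-values describe the set and are not independent evidence of it.

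No difference in slope between treatments was detected. With a separate slope for each treatment, 0 of 10 members were called for the difference, beside 0% of 16631 genes, and by edgeR's test 0 members and 544 genes had an unadjusted p under 0.05. DESeq2 and voom were not run on this difference. The MTP10-HDL minus PBS difference in slope ran from -0.22 for Herpud1 (95% interval -0.58 to 0.14) to 0.09 for Hsp90b1 (95% interval -0.22 to 0.40).

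PBS pool 2 carried many of the calls on the share. Without it 2 of 10 members were called, Pdia4 (slope 0.34) and Sdf2l1 (slope 0.43), and 38 genes in place of 123. The slope of Hspa5 was then 0.22, of Hsp90b1 0.30 and of Manf 0.20, close to their values with all libraries, while that of Herpud1 was 0.21 and that of Dnajb9 0.11. Pdia4 and Sdf2l1 were called in all 13 fits that leave out a library, with adjusted p no higher than 0.00895 and 0.0123. Herpud1 was called in 4 of these 13. With a term for the technical groups, 0 members and 26 genes were called, at slopes of 0.37 for Pdia4 (edgeR adjusted p = 0.0903), 0.36 for Sdf2l1, 0.28 for Hsp90b1, 0.25 for Manf, 0.19 for Hspa5 and 0.17 for Herpud1. The share itself differed between the technical groups, so share and technical group are only partly separable in this slope. Without PBS pools 1 and 2 both, 0 members and 24 genes were called, with slopes of 0.29 for Pdia4 and 0.35 for Sdf2l1.

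The promoters of several members carry the ER stress response element (ERSE), CCAAT and CCACG spaced by 9 bases, a site bound by ATF6 together with NF-Y in work on human chaperone genes. RefSeq promoter windows (GRCm38.p6, 250 bases before to 50 after the start) were at hand for 8 of the 10 members. The exact element, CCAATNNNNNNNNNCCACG on either strand, occurred in 3 of these 8, against 39 of all 32851 windows (0.119%) and 7 of 88 windows of other secretory pathway genes (Calr, Canx, Creld2, Derl3, Dnajc3, Ero1b and Syvn1). The related ERSE-II, ATTGGNCCACG on either strand, occurred in 1 of 8, against 12 of 32851 windows (0.0365%). The stretches around these elements are shown because they are the part of the promoters that the called chaperones Hspa5 and Hsp90b1 share with Pdia6, which was not called. Each is given 5′ to 3′ on the strand of the gene, with ERSE or ERSE-II in capitals.
Hspa5, chr2:34771985-34772083, plus strand: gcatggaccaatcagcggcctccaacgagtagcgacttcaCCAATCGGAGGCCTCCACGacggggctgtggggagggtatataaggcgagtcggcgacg
Hsp90b1, chr10:86705493-86705694, minus strand: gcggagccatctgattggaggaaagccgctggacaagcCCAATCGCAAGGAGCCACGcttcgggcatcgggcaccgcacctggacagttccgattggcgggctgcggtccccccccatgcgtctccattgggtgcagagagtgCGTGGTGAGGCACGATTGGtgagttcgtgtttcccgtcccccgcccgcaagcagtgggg
Pdia6, chr12:17266451-17266549, plus strand: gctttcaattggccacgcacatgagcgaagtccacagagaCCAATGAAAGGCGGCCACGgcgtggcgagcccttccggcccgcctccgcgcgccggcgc
Herpud1, chr8:94386337-94386427, plus strand: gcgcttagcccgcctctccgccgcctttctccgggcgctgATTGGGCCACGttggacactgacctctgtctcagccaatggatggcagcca

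Counted from the start of the gene, the Hspa5 element lay at -65 to -47, that of Pdia6 at -98 to -80, and the ERSE-II of Herpud1 at -52 to -42. Hsp90b1 had 2 elements, at -212 to -194 on the printed strand and at -107 to -89 on the other strand. Without the last base of the element (CCAATNNNNNNNNNCCAC, which every ERSE also matches), 5 of 8 members matched on either strand, Pdia4 and Herpud1 in addition, against 120 of 32851 windows (0.365%). The windows of Sdf2l1, Dnajb9 and Ern1 held none of these letters, and no window was at hand for Manf and Atf6. Members with a called slope on the immunoglobulin share stood on both sides: Hspa5, Hsp90b1 and Herpud1 held an ERSE or ERSE-II, while Pdia4 and Sdf2l1, the 2 of steepest slope, held neither, and likewise Pdia6 with an ERSE and Dnajb9 and Ern1 without were not called.

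Other genes of the same pathway, taken from 4 lists of 89 genes that leave out the 10 members, showed the same sign more often than they were called. The lists were written with earlier results of these data known and are described by counts only. Of 28 other ER chaperones and folding enzymes, 4 were called on the immunoglobulin share, all positive (Txndc5, Creld2, Hyou1 and Dnajc3), and 27 had a positive slope, with a median of 0.11. Of 20 ERAD genes, 6 were called, all positive (Sel1l, Derl3, Edem1, Selenos, Ube2j1 and Syvn1), with a median of 0.10. Of 20 tested genes of the translocon and of signal peptide processing, 1 was called, the channel subunit Sec61a1, and 19 had a positive slope, with a median of 0.13. Of 20 other sensors, proteases and transcription factors of the UPR, 2 were called, Xbp1 and Atf4, with a median of 0.08. Over all 16631 genes, 8118 slopes were positive and 8513 negative.

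The steepest of these were Derl3, an ERAD channel component, at 0.85 (SE 0.12, edgeR adjusted p = 0.000922), and Txndc5, a disulfide isomerase, at 0.63 (SE 0.06, edgeR adjusted p = 2.81e-05). Derl3 had 1.33 to 48.8 CPM in MTP10-HDL HSC pools and 1.98 to 109 CPM in PBS pools. Txndc5 had 57.6 to 169 CPM in MTP10-HDL pools and 34.8 to 648 CPM in PBS pools. Creld2, an ER folding factor, rose by 0.44 per doubling (SE 0.06, edgeR adjusted p = 0.00113), Sel1l, the scaffold of the Hrd1 complex, by 0.38 (SE 0.05, edgeR adjusted p = 0.000195), and Xbp1, the transcription factor made from the mRNA that Ern1 splices, by 0.44 (SE 0.06, edgeR adjusted p = 0.000532). Txndc5, Creld2, Derl3, Sel1l and Xbp1 were called in all 13 fits that leave out a library. With a term for the technical groups only Txndc5 of these was called (edgeR adjusted p = 0.00665), and with same-numbered pools as a block none was. Of the other called list genes, Edem1 and Selenos were called in 12 of the 13 fits, Ube2j1 in 11, and Atf4 and Syvn1 in 8. Hyou1 was called in 7, Dnajc3 in 4 and Sec61a1 in 2. Beside these list genes stood the plasma cell markers, of which 7 of 9 tested were called, all positive, with a median slope of 0.70. Jchain, the joining chain of secreted antibody, was at 1.23 and Tnfrsf17, the receptor BCMA, at 1.27. Xbp1 belongs to both lists. Of 13 B cell markers tested, edgeR called 0, and 4 reached an unadjusted p below 0.05; their median slope was 0.18. All 8 monocyte and macrophage markers had a positive slope, with a median of 0.43. Of these, edgeR called 1, Ly6c2 (0.49, adjusted p = 0.00128). Of 10 HSC and progenitor markers, edgeR called 1, Ly6a (0.41, adjusted p = 0.00532), and the median was -0.03. Mature neutrophil and erythroblast markers had 0 called, with medians of -0.17 and 0.05. Whether the members' slopes come from RNA of plasma cells, of other cells in the pools or of the sorted cells themselves was not tested.

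**Figure D4:**
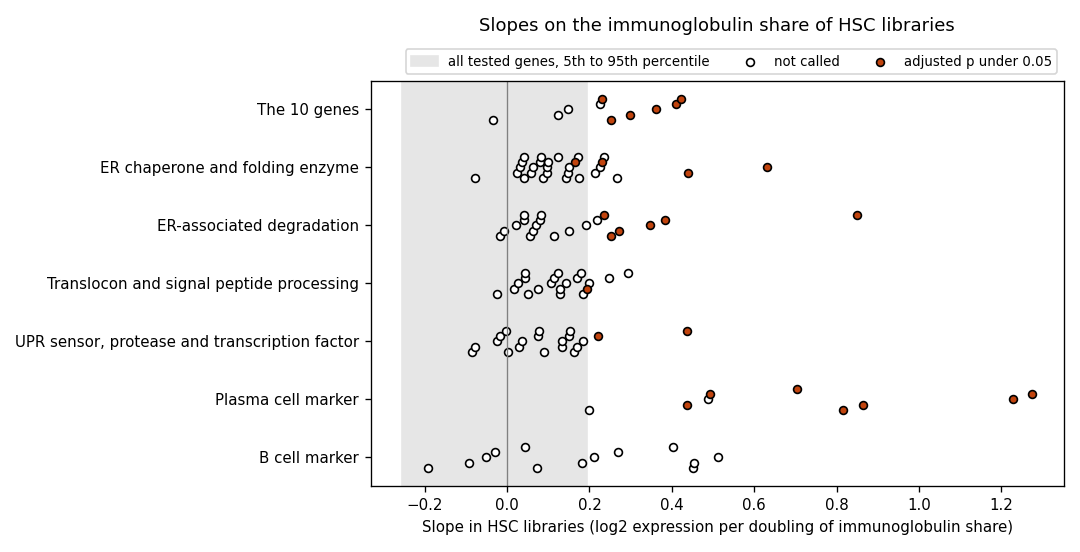
Slope of each gene on the immunoglobulin share of HSC libraries (log2 expression per doubling of the share) for the 10 genes, 4 lists of other secretory pathway genes, plasma cell markers and B cell markers, with filled points at an adjusted p under 0.05 and the grey band spanning the 5th to 95th percentile of all tested genes. Plasma cell markers reach 1.27, the 10 genes run from -0.04 to 0.42, and most genes of the wider lists lie between 0 and 0.3.

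With treatment, the same lists gave 0 called genes in HSCs and 0 in MPPs by edgeR with the filter on low counts. With no filter, edgeR called Txndc5 (-1.06, adjusted p = 0.00711) and Derl3 (-1.07, adjusted p = 0.0316) in MPPs. For each list the 2 genes of smallest p in each direction are given as values. In HSCs, P4hb, a disulfide isomerase, had a log2 fold change of 0.58 (SE 0.17), and Uggt1, the glycoprotein folding sensor, one of 0.39 (SE 0.11). Txndc5 stood at -0.95 (SE 0.59) and Ero1lb, an ER oxidase, at -0.26 (SE 0.21); without PBS pool 2 they stood at -0.11 and -0.12. Among ERAD genes, Ube2g2 stood at 0.37, Derl2 at 0.21, Edem3 at -0.39 and Sel1l at -0.49, each with an edgeR adjusted p above that of Ern1. Without PBS pool 2 Edem3 stood at -0.25 and Sel1l at -0.022. In the translocon list, Srp68 stood at 0.31, Ssr1 at 0.26, Sec61g at -0.69 and Sec63 at -0.22. In the sensor and transcription factor list, Bak1 stood at 0.37, Traf2 at 0.34, Ppp1r15a, which reverses the PERK branch, at -1.02 (SE 0.36, edgeR adjusted p = 0.460), and Ern2, a paralog of Ern1, at -1.52 (SE 0.66). Without PBS pool 4 Ern2 stood at -0.67. Other list values also moved by over 1.5 times on leaving out a library: Derl2 to 0.14 without PBS pool 7, Ube2g2 to 0.24 without MTP10-HDL pool 6, Sec63 to -0.14 without PBS pool 5, Traf2 to 0.22 without PBS pool 1 and to 0.50 without MTP10-HDL pool 3, and Srp68 to 0.21 without MTP10-HDL pool 3. In all, 4 of the 88 list genes tested in HSCs had an unadjusted p under 0.05 upward and 4 downward. Over all 16631 genes 725 were upward and 744 (4.47%) downward by that measure, a similar share.

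In MPPs, Pdia5 stood at a log2 fold change of 0.78 (SE 0.30), Tmx1 at 0.41, Txndc5 at -1.09 (SE 0.32, edgeR adjusted p = 0.590) and Ero1lb at -0.46. Txndc5 had 201 to 280 CPM in MTP10-HDL MPP pools and 361 and 709 CPM in PBS MPP pools, so its groups did not overlap, and DESeq2 called it (adjusted p = 0.0487). Among ERAD genes, Nploc4 stood at 0.19, Derl2 at 0.24, Derl3 at -1.09 and Sel1l at -0.53. In the translocon list, Ssr2 stood at 0.51, Srp68 at 0.32, Sec61a1 at -0.72 and Sec61g at -0.95. In the sensor and transcription factor list, Bak1 stood at 0.42, Bax at 0.38, Xbp1 at -0.84 (SE 0.30, edgeR adjusted p = 0.729) and Creb3l2 at -0.80. Xbp1, the substrate of Ern1, had 166, 216 and 259 CPM in MTP10-HDL MPP pools as its lowest, median and highest value, against 281 and 484 CPM in PBS MPP pools. The values of several of these genes rested on PBS MPP pool 2. Without it Txndc5 stood at -0.53, Derl3 at -0.27, Sel1l at 0.046, Xbp1 at -0.41 and Creb3l2 at -0.29, and Nploc4 was at 0.38 without that pool and at 0.0083 without PBS MPP pool 3.

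Since the immunoglobulin share varied so much between pools, treatment was also fitted with the log2 share in the model. The share itself averaged 1.81% ± 1.63 in MTP10-HDL HSC pools and 5.31% ± 6.97 in PBS HSC pools (SD, n = 6 and 7; exact two-sided permutation p = 0.28). In MPPs it averaged 3.75% ± 0.862 and 9.35% ± 4.46 in MTP10-HDL and PBS pools (SD, n = 3 and 2; exact two-sided permutation p = 0.1, the smallest that 10 arrangements allow). The MTP10-HDL minus PBS difference was -3.50 percentage points in HSCs and -1.08 without PBS pool 2, and -5.60 in MPPs and -2.45 without PBS MPP pool 2. With the share in the model, 0 members were called in HSCs by edgeR, beside 0 of 16631 genes. By that test 4 of 10 members had an unadjusted p under 0.05, 3 higher and 1 lower, beside 1673 of all genes. The median log2 fold change of the members was 0.16 in place of -0.19, against -0.008 over all genes. Sdf2l1 then stood at 0.69 (SE 0.19, edgeR quasi-likelihood unadjusted p = 0.00251, adjusted p = 0.309), Pdia4 at 0.49 (SE 0.18, adjusted p = 0.422) and Manf at 0.40 (SE 0.16, adjusted p = 0.450). Ern1 stood at -0.52 (SE 0.15, edgeR quasi-likelihood unadjusted p = 0.00257, adjusted p = 0.309), near its value without the share. Herpud1 moved to -0.50 and Dnajb9 to -0.30, while Hspa5 was at -0.08 and Hsp90b1 at 0.15. In MPPs the same model left 0 members with an unadjusted p under 0.05 by edgeR, beside 452 of 15449 genes. The value of Ern1 was -0.02 (95% interval -1.73 to 1.69), in place of -0.87. Sdf2l1 stood at 1.33 (95% interval -0.05 to 2.71) in place of 0.22, and Herpud1 at -0.53 in place of -0.30. Every MTP10-HDL MPP pool had a lower share than both PBS MPP pools. Share and treatment therefore cannot be told apart in MPPs, and these values do not separate them.

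**Figure D5:**
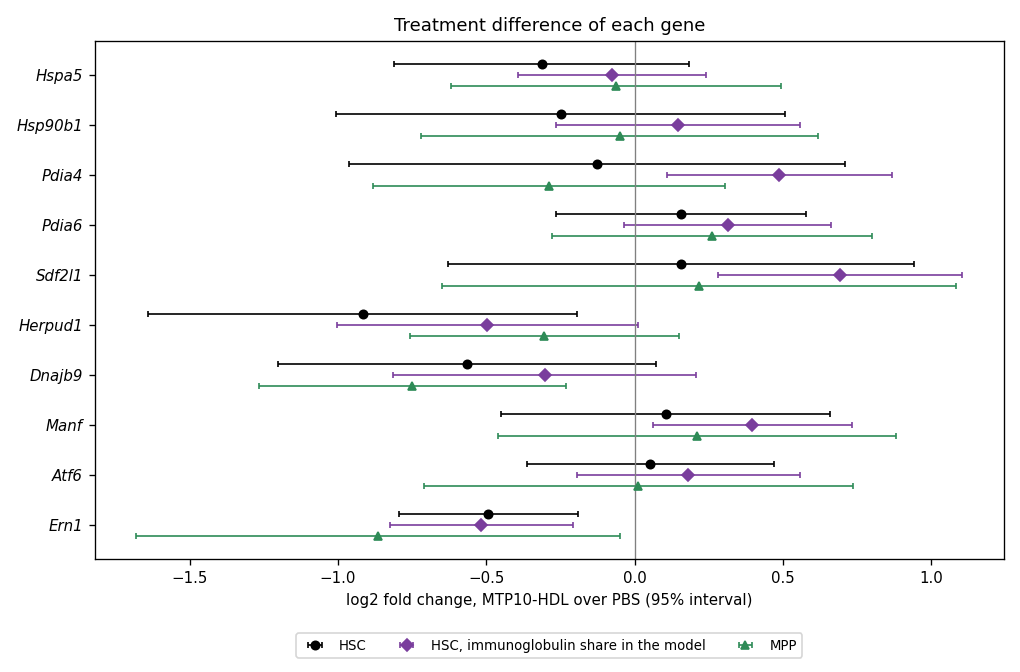
Log2 fold change of MTP10-HDL over PBS for each of the 10 genes, with 95% intervals, in HSCs (circles), in HSCs with the immunoglobulin share in the model (diamonds) and in MPPs (triangles). Ern1 lies at -0.52 with that term and at -0.49 without it, Sdf2l1 lies at 0.69 with it and at 0.16 without it, and no gene passed an adjusted p of 0.05.

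The members also moved with each other. Over the 36 pairs of members that leave out Ern1, the correlation of log2 CPM across the 13 HSC libraries had a median of 0.72 and ran from 0.42 to 0.96, whereas the 9 pairs with Ern1 had a median of -0.18 and ran from -0.36 to 0.27. The genes most like Hspa5 among 9696 genes with a mean of at least 10 CPM were Hsp90b1 (r = 0.90), the immunoglobulin constant genes Iglc2 (0.90) and Ighg1 (0.87), Jchain (0.87) and the joining segment Igkj1 (0.86). Herpud1 ranked 78, Pdia4 86, Sdf2l1 90, Dnajb9 185, Manf 208, Pdia6 229, Atf6 558 and Ern1 2476 in likeness to Hspa5. With each treatment's mean removed, the order differed: Iglc2 came first and Hsp90b1 ranked 2, Sdf2l1 4, Pdia4 23, Pdia6 78, Manf 84, Herpud1 138, Dnajb9 324, Atf6 491 and Ern1 5078. These libraries share their scaling and the immunoglobulin gradient, and the values are descriptions over 13 libraries.

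Placed on GRCm38.p6, Hspa5 lies at chr2:34772090-34776529 and overlaps Rabepk. Rabepk had 22.9 to 64.2 CPM in HSC libraries, and Hspa5 had at least 326 CPM. These values compare numbers of reads, not levels of the genes, and whether the overlap added reads was not tested. Pdia6 lies at chr12:17266589-17284785 and overlaps Atp6v1c2, which reached at most 2.73 CPM. Ern1, at chr11:106397620-106487796, Herpud1, at chr8:94386429-94395371, and Dnajb9, at chr12:44205897-44210068, overlap no other annotated gene. Pdia4 spans the microRNA gene Mir704, and Atf6 spans 4 predicted genes. Whether counting used strand is not given in the sources used here.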

How the data were processed

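Counts per gene were deposited by the authors as raw whole numbers, one table for HSCs and one for MPPs. Per the submitters' processing notes the build was mm10, with STAR 2.5.2b and CASAVA 1.8.2 named for HSCs and STAR 2.7.2a, DESeq2 1.24 and R 3.6.1 for MPPs. No source used here names the counting tool or says whether it used strand. Total counts per library were 4064155 to 7879858 in HSCs and 11252479 to 32769369 in MPPs. Each table was fitted alone with edgeR 4.0.16 in R 4.3.3: genes were filtered with filterByExpr, scaled by TMM, and tested by the quasi-likelihood test, with Benjamini-Hochberg adjustment over all genes and a threshold of 0.05. CPM are counts scaled to a common total by the TMM-scaled library size; they do not compare levels between genes. The slope model held treatment and the log2 percentage of counts from genes whose biotype begins with IG_. Responses of the cell types were compared in one fit of all 18 libraries. limma 3.58.1 (voom) and DESeq2 1.42.0 were alternatives, beside RLE scaling, other filters, leaving out libraries, immunoglobulin genes or technical groups as a term. The fits were also run on simulated counts, drawn with independent genes and a dispersion of 0.05 for every gene. Those counts held no pool that stands apart, so they do not show how the fits perform on these data. The members and lists were chosen with earlier results of these data known. All members are named, and of each wider list the 2 genes of smallest p in each direction. Jchain, Tnfrsf17, Ly6c2, Ly6a and the remaining called list genes were named after their values were seen. Same-numbered pools showed no clear common deviation, so the main fits used no block, though so few pairs cannot exclude one. The sample labels hold a PBS HSC pool 8, a number that the counts do not use. Chromatin accessibility samples of the series were not analysed here. Promoter windows and positions are from RefSeq, GRCm38.p6.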

Additional observations from a re-analysis of the deposited data

Results flagged for a closer look

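Among 22 groups of member levels and immunoglobulin shares in HSC pools, 8 held a library that stood apart by Dixon's test. That is, its distance from its nearest neighbour was large against the range of the group. Chance gives this in about 1 in 20 groups of independent, normally distributed values. These groups were CPM and percentages, and most members moved together, so the 8 cannot be judged by that rate. PBS pool 2 held 4 of the 8. It had 2673 CPM of Hsp90b1, where the next PBS pool had 1292 CPM. It had 144 CPM of Herpud1, where the next had 69.7 CPM, and 73.2 CPM of Dnajb9, where the next had 31.0 CPM. Its immunoglobulin share was 19.8%, where the next was 7.83%. Ern1 had 147 CPM in MTP10-HDL pool 4, where the next had 127 CPM, and 274 CPM in PBS pool 7, where the next had 185 CPM. Pdia6 had 189 CPM in MTP10-HDL pool 4, where the next had 127 CPM. Atf6 had 186 CPM in MTP10-HDL pool 1, where the next had 127 CPM.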

How the results depend on the processing

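No member was called for treatment in any setting tried, in HSCs or MPPs. Of 1505 values of single genes under an alternative, 1311 kept direction and side of the threshold and 44 changed sign. Another 147 lost a call, all of them slopes on the immunoglobulin share. Among slopes 447 values kept direction and side, those of genes not called in the main fit included. Treatment had 0 calls in the main fits, so its values had none to lose. Calls were gained by 3 values (Txndc5 in MPPs with DESeq2 and with no filter, and Derl3 in MPPs with no filter). The cause was not tested. Same-numbered pools correlated at -0.19 to 0.19 in HSCs and at -0.17 and -0.03 in MPPs, so no pairing by number was seen. So few pairs cannot exclude one. With the replicate block 43 MPP genes were called for treatment. For the slope 12 genes were called, and 0 members in place of 6. Pdia4 then stood at 0.053 in HSCs, Atf6 at -0.14 in MPPs and the slope of Ern1 at 0.012. Genes called for treatment numbered 104 with DESeq2 and 44 with no count filter in HSCs, and 163 and 345 in MPPs. For the difference in response, DESeq2 called 2 genes, no filter 4 and leaving out immunoglobulin genes 2. For the slope, DESeq2 called 231 genes, no filter 261, leaving out immunoglobulin genes 59, the share in percent 69 and technical groups 26. Leaving out PBS pools 1 and 2 gave 24 genes, PBS pools alone 65 and MTP10-HDL pools alone 7. Members called were 6 with DESeq2 and with no filter, 5 without immunoglobulin genes, and 4 with the share in percent and in PBS pools alone. With the share in percent, Hspa5 (edgeR adjusted p = 0.236) and Sdf2l1 (edgeR adjusted p = 0.109) were not called. Members called were 0 with technical groups, without PBS pools 1 and 2 and in MTP10-HDL pools alone. The median slope of the members was then 0.18, 0.19 and 0.18, and 0.089 per percentage point of the share. With the immunoglobulin share in the model the median log2 fold change of the members was 0.16 in HSCs and 0.31 in MPPs. Over all genes it was -0.008 and 0.09. In HSCs this gave Pdia4 0.49, Hsp90b1 0.15, Txndc5 0.20 and Sel1l 0.010. In MPPs it gave Hspa5 0.18, Hsp90b1 0.77, Pdia4 0.44, Atf6 -0.27, Txndc5 0.094, Derl3 0.56, Sel1l 0.47, Xbp1 0.18 and Creb3l2 0.14. There the share itself separated the treatments. With voom Pdia4 was 0.15 in HSCs and Atf6 -0.060 in MPPs; with genes of at least 10 CPM only, Atf6 was -0.0048 in HSCs and -0.044 in MPPs, and without immunoglobulin genes -0.00037 in MPPs. The slope of Ern1 was 0.0033 without PBS pools 1 and 2 and 0.014 in MTP10-HDL pools. Leaving out each library in turn gave in HSCs Atf6 -0.10 to 0.20, Hsp90b1 -0.39 to 0.14, Pdia4 -0.27 to 0.37, Sdf2l1 -0.023 to 0.44, a median of -0.32 to 0.17 and 0 to 1 genes called. For the slope it gave Ern1 -0.068 to 0.010, a median of 0.20 to 0.29, 38 to 145 genes and 2 to 6 members called. In MPPs it gave Atf6 -0.21 to 0.26, Bax -0.15 to 0.59, Derl2 -0.018 to 0.54, Hsp90b1 -0.30 to 0.24, Hspa5 -0.21 to 0.066, Manf -0.086 to 0.40, Pdia4 -0.57 to 0.056, Sdf2l1 -0.15 to 0.54, Sec61g -1.54 to 0.00098, Sel1l -0.95 to 0.046 and 0 to 17 genes called. For the difference in response 0 to 2 genes were called. With 2 PBS pools, MPP values rest on few libraries.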
